A study of Gallus gallus with 9 samples.

Results

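The genes described here are 10 secreted factors and receptors of the TGF-beta and BMP pathways in the chick embryo. They are the TGF-beta ligands TGFB2 and TGFB3, the type II receptor TGFBR2, the BMP ligands BMP2, BMP4, BMP5 and BMP7, and the secreted antagonists CER1 (NCBI gene ID 395623), NOG and GREM1. They were chosen by name, with earlier results of these data known. All 10 had an entry among the 14074 named genes of the files. Where a gene had several entries, these were summed. RNA-seq libraries were made from periocular neural crest at embryonic day 3 (E3), from corneal endothelium at embryonic day 5 (E5), and from corneal endothelium with keratocytes at embryonic day 7 (E7), with 3 libraries per stage and 9 in all. No strain, genotype or treatment is given in the labels, so the groups differ by stage and tissue together, and an effect of stage cannot be told apart from one of tissue. Whether a stage's libraries are separate embryos or pools is not stated, so the p-values may measure technical spread only. Levels are given in FPKM, fragments scaled to transcript length and to the depth of the library.

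TGF-beta and BMP ligands are secreted dimers that bring type II and type I serine/threonine kinase receptors together at the cell surface. TGF-beta ligands act mainly through SMAD2 and SMAD3, and BMP ligands through SMAD1, SMAD5 and SMAD9. TGF-beta is released in a latent form, held by its propeptide and by matrix-bound binding proteins, whereas BMPs are held back by secreted antagonists such as noggin and gremlin that bind the ligand. In the developing eye, neural crest cells that surround the optic cup migrate between the lens and the surface ectoderm and form the corneal endothelium and then the stromal keratocytes. TGFB2 is known from mouse mutants to be required for corneal stroma, and BMP4 from mouse mutants for lens induction.

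The libraries held 9874339 to 23205388 estimated counts, and the E7 libraries were the shallowest. The E3 libraries resembled each other closely (Pearson r of log2 expression across genes 0.988 to 0.989), but the corneal libraries did not sort by stage. The third library labelled E7 had r = 0.985 and 0.981 with the first and second E5 libraries, against 0.926 and 0.937 with the other E7 libraries. The third library labelled E5 had r = 0.975 and 0.981 with the first and second E7 libraries, against 0.941 and 0.948 with the other E5 libraries. Whether these 2 labels were exchanged was not tested. Libraries are kept under their labels, so each E5 and E7 mean and the comparison of E7 with E5 include them, and calls that are gained, lost or reversed without them are given beside the result. The tissue markers divided E3 from cornea: SOX10, a neural crest transcription factor, had 0.01 to 1.0 FPKM in the 6 corneal libraries and 14.51 to 17.2 FPKM at E3, and AQP1, a water channel of corneal endothelium, had 523.59 to 1084.81 FPKM in the corneal libraries and 0.48 to 1.2 FPKM at E3. The E3 tissue also carried red cell and vessel transcripts. The 9 erythroid markers summed to 2910 to 3390 CPM (counts scaled to a common library depth) at E3. They summed to 65, 63.7 and 110 CPM at E5 and to 253, 96.6 and 70.6 CPM at E7. Of 7 erythroid markers tested, 6 were lower and 1 higher at E5 and again at E7 than at E3. ALAS2 of that list had 24.91 to 28.33 FPKM in the corneal libraries and 22.46 to 23.48 FPKM at E3. Of 10 vascular markers, 6 were lower and 1 higher at E5 and again at E7 than at E3. CDH5, which marks blood vessel endothelium, had 0.05 to 3.83 FPKM in the corneal libraries and 35.6 to 41.5 FPKM at E3, whereas FLT4, a receptor of lymphatic and vascular endothelium, had 49.32 to 94.6 FPKM in the corneal libraries and 8.31 to 10.89 FPKM at E3.

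Among the TGF-beta ligands, TGFB2 rose about 5 units on the log2 scale between periocular crest and cornea, and no change of TGFB3 passed the test. TGFB2 had 1.95, 2.05 and 2.35 FPKM in the E3 libraries, 50.64, 62.55 and 77.12 FPKM in the E5 libraries, and 69.93, 66.19 and 54.77 FPKM in the E7 libraries. All 6 corneal libraries lay above all 3 E3 libraries, and the E5 and E7 ranges overlapped. At E5 it averaged 63.4 ± 13.3 FPKM, against 2.12 ± 0.208 FPKM at E3 (SD, n = 3 each), a log2 fold change of 5.07 ± 0.16 (SE; edgeR's quasi-likelihood test, adjusted p = 2e-06). At E7 it averaged 63.6 ± 7.90 FPKM, a log2 fold change of 5.04 ± 0.16 against E3 (edgeR's adjusted p = 2.18e-06). With any 1 of the 9 libraries left out, the log2 fold change stayed within 4.95 to 5.19 for E5 against E3 and within 4.98 to 5.13 for E7 against E3. Ranked by level among the genes tested, TGFB2 stood above 25.7% of them at E3, 91.9% at E5 and 91.7% at E7. In such bulk samples, fewer cells of a type and less RNA per cell cannot be told apart.

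TGFB3 had 34.19, 35.44 and 40.13 FPKM at E3, 31.03, 24.30 and 45.73 FPKM at E5, and 46.49, 41.71 and 31.43 FPKM at E7. The ranges of the 3 stages overlapped. The third E5 library and the first and second E7 libraries lay above all 3 E3 libraries, and the other corneal libraries lay below them. The log2 fold change was 0.05 ± 0.21 for E5 against E3 (edgeR's adjusted p = 0.879) and 0.25 ± 0.21 for E7 against E3 (edgeR's adjusted p = 0.377). The E5 value had no fixed direction: it was -0.12 when counts were scaled by library size alone and -0.19 without the third E5 library. TGFB3 was thus the more abundant TGF-beta ligand message in every E3 library and TGFB2 in every corneal library. Their ratio per length, TGFB2 over TGFB3, was 0.057, 0.0578 and 0.0586 at E3, 1.63, 2.57 and 1.69 at E5, and 1.5, 1.59 and 1.74 at E7. The sum of both ligands was 36.14 to 42.48 FPKM at E3, 81.67 to 122.85 FPKM at E5 and 86.2 to 116.42 FPKM at E7, with no overlap between E3 and the corneal libraries. TGFB1 is not analysed here.

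**Figure D1:**
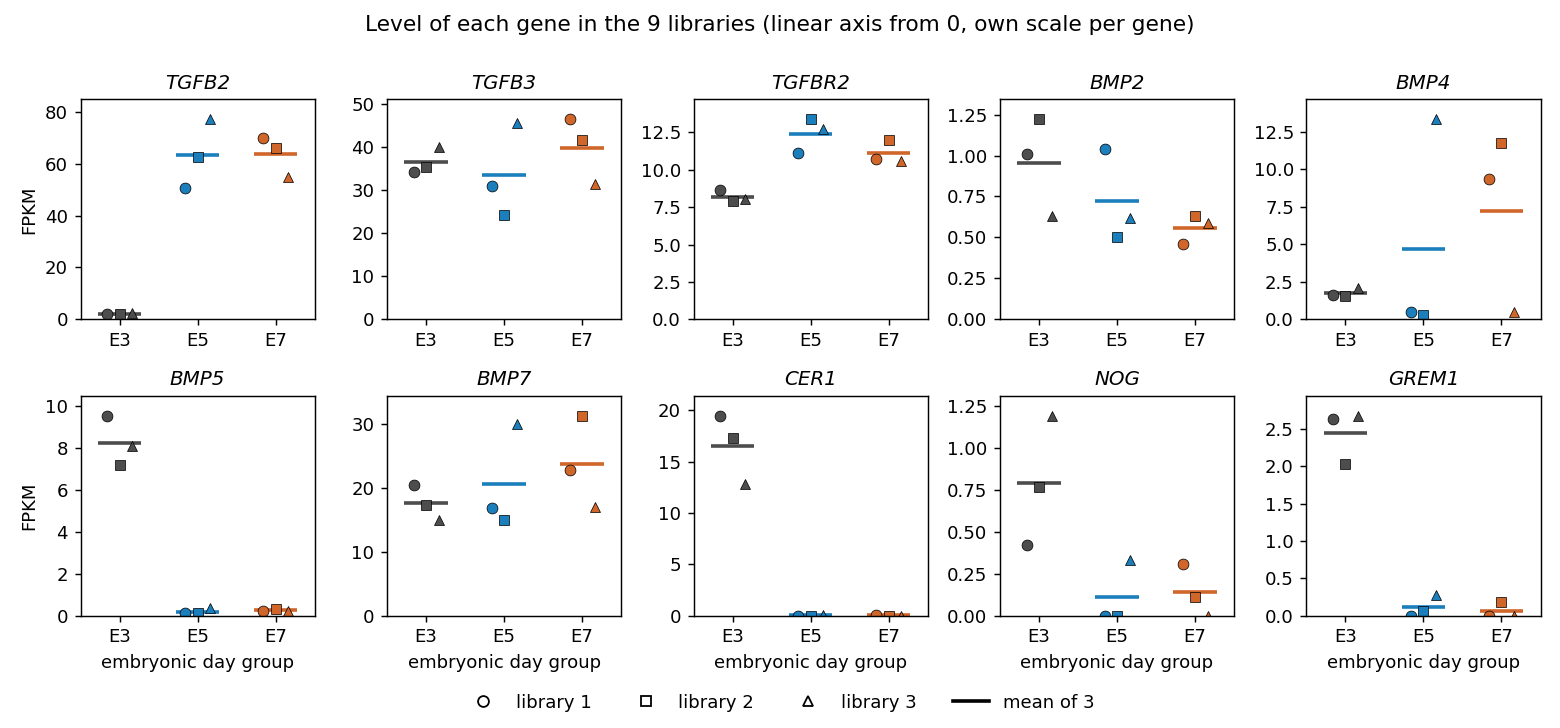
FPKM of each of the 10 genes in the 9 libraries, 1 panel per gene on its own linear axis that starts at 0, with points for libraries and a bar for the stage mean. TGFB2 sits at 50.64 to 77.12 FPKM in the corneal libraries and at 1.95 to 2.35 FPKM at E3, while BMP4 is high in 3 of the 6 corneal libraries, at 9.36 to 13.32 FPKM.

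TGFBR2, the type II receptor that binds TGF-beta ligands and recruits the type I receptor TGFBR1, rose by less than a single log2 unit. It had 8.64, 7.93 and 8.04 FPKM at E3, 11.16, 13.37 and 12.71 FPKM at E5, and 10.74, 12.02 and 10.58 FPKM at E7. All 6 corneal libraries lay above all 3 E3 libraries. At E5 it averaged 12.4 ± 1.13 FPKM, against 8.20 ± 0.382 FPKM at E3 (SD, n = 3 each), a log2 fold change of 0.77 ± 0.09 (edgeR's adjusted p = 0.00053). At E7 it averaged 11.1 ± 0.789 FPKM, and the log2 fold change against E3 was 0.61 ± 0.09 (edgeR's adjusted p = 0.00168). Scaled by library size alone, the log2 fold changes were 0.60 for E5 and 0.47 for E7, beside a median over all genes of -0.14 and -0.10 under that scaling, and both stayed past the threshold (edgeR's adjusted p = 0.00227 and 0.00686). On the log2(FPKM + 1) scale the change at E7 was 0.40 (limma's adjusted p = 0.0179). TGFBR2 was the sum of a short entry of 2007 bases and a longer predicted entry of 4434 bases, and the longer entry held 73.5% to 84.9% of the summed FPKM at E3, 77.2% to 79.0% at E5 and 79.9% to 83.4% at E7.

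Of 16 other receptors and co-receptors, all 16 passed the low-count filter. At E5, 2 were higher and 5 lower than at E3, where 18.5% of the 11719 genes tested were called higher and 17.6% lower. At E7, 2 were higher and 3 lower, where 17.3% of all genes were called higher and 16.4% lower. The median log2 fold change was 0.26 at E5 beside 0.03 over all genes tested, and 0.22 at E7 beside 0.04. TGFBR3 (betaglycan), a co-receptor that presents TGFB2 to TGFBR2, fell to 2.48 ± 0.73 FPKM at E5 and 2.84 ± 0.462 FPKM at E7, against 14.2 ± 0.751 FPKM at E3 (log2 fold changes -2.32 and -2.18, edgeR's adjusted p = 0.000527 and 0.000726). BMPR2, the BMP type II receptor, rose to 34.1 ± 7.17 FPKM at E5 and 38.4 ± 11.2 FPKM at E7, against 18.1 ± 2.47 FPKM at E3 (log2 fold changes 1.07 and 1.17, edgeR's adjusted p = 0.0044 and 0.00329). ACVR2B, a type II receptor for activins and some BMPs, fell to 5.10 ± 1.08 FPKM at E5 and 5.66 ± 1.08 FPKM at E7, against 13 ± 0.779 FPKM at E3 (log2 fold changes -1.17 and -1.06, edgeR's adjusted p = 0.00177 and 0.00289).

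TGFBR1, the type I receptor that works with TGFBR2, averaged 24.1 ± 3.83 FPKM at E5 and 25.8 ± 4.03 FPKM at E7, against 18.5 ± 1.42 FPKM at E3 (SD, n = 3 each). Its rise was called at both stages (log2 fold changes 0.56 and 0.63, edgeR's adjusted p = 0.0429 and 0.0311), but the E5 call was lost without any 1 of the E3 libraries, the first or second E5 library or the first E7 library (edgeR's adjusted p = 0.054 to 0.138). The E5 call was also lost under scaling by library size alone (0.38, edgeR's adjusted p = 0.0825), with the highest entry of each gene only (0.57, edgeR's adjusted p = 0.0536) and on the log2(FPKM + 1) scale (0.35, limma's adjusted p = 0.0845). At E7 the call was lost without any 1 of the E3 libraries or the third E7 library (edgeR's adjusted p = 0.0689 to 0.104). BAMBI, a pseudoreceptor without kinase domain that dampens TGF-beta and BMP signalling, had 5.01, 5.59 and 21.92 FPKM at E5, against 64.04 to 85.54 FPKM at E3. Its E5 log2 fold change was -2.58 (edgeR's adjusted p = 0.0219), and the call was lost without any 1 of the E3 libraries or the first or second E5 library (edgeR's adjusted p = 0.0524 to 0.0725). Without the third E5 library the value was -3.55 (edgeR's adjusted p = 0.00503). At E7 BAMBI had 20.83, 23.92 and 4.29 FPKM and was not called (log2 fold change -2.02, edgeR's adjusted p = 0.0525).

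The 4 BMP ligands behaved unlike each other: BMP5 fell, BMP4 split the corneal libraries, and no change of BMP7 or BMP2 passed the test. BMP5, a ligand of the same subgroup as BMP7, had 9.54, 7.18 and 8.10 FPKM at E3, 0.12, 0.12 and 0.37 FPKM at E5, and 0.22, 0.34 and 0.21 FPKM at E7. All 6 corneal libraries lay below all 3 E3 libraries. At E5 the mean was 0.203 ± 0.144 FPKM, against 8.27 ± 1.19 FPKM at E3 (SD, n = 3 each), a log2 fold change of -5.32 ± 0.60 (edgeR's adjusted p = 0.000527). At E7 the mean was 0.257 ± 0.0723 FPKM, and the log2 fold change against E3 was -4.70 ± 0.59 (edgeR's adjusted p = 0.000876). On the log2(FPKM + 1) scale, which shrinks the change of genes near 0, the values were -2.94 and -2.88 (limma's adjusted p = 3.6e-06 and 4.09e-06). BMP5 was the sum of entries of 1918 and 3612 bases, and the shorter held 33.6%, 32.3% and 45.8% of its FPKM in the E3 libraries.

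BMP7 was the most abundant BMP ligand of the set in every library. It had 20.45, 17.42 and 15.05 FPKM at E3, 16.83, 14.96 and 30.06 FPKM at E5, and 22.86, 31.31 and 17.05 FPKM at E7. The ranges of the stages overlapped, and the values above 22 FPKM were those of the third E5 library and the first and second E7 libraries. The log2 fold change was 0.39 ± 0.27 for E5 against E3 (edgeR's adjusted p = 0.297) and 0.56 ± 0.27 for E7 against E3 (edgeR's adjusted p = 0.151). With the third E5 and the third E7 library both left out, BMP7 was called higher at E7 than at E3 (0.72, edgeR's adjusted p = 0.0108), and the E5 value was 0.06 (edgeR's adjusted p = 0.776). Those libraries were left out for how they lay among the others, so that call is not independent evidence. BMP2 was near 1 FPKM or below in all libraries, with 1.01, 1.22 and 0.63 FPKM at E3, 1.04, 0.50 and 0.62 FPKM at E5, and 0.46, 0.63 and 0.59 FPKM at E7. Its stages overlapped, with log2 fold changes of -0.24 ± 0.45 at E5 and -0.62 ± 0.47 at E7 against E3 (edgeR's adjusted p = 0.718 and 0.337).

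BMP4 had 1.59, 1.53 and 2.06 FPKM at E3, 0.51, 0.31 and 13.32 FPKM at E5, and 9.36, 11.74 and 0.46 FPKM at E7. The 3 E3 libraries lay between the corneal libraries, as they did for TGFB3. The third E5 library and the first and second E7 libraries stood above them. The first and second E5 libraries and the third E7 library stood below. The means were 4.71 ± 7.45 FPKM at E5 and 7.19 ± 5.95 FPKM at E7, against 1.73 ± 0.290 FPKM at E3 (SD, n = 3 each), so the SD within a corneal stage was near or above its mean. Neither stage was called against E3 (log2 fold changes 1.56 ± 1.41 and 2.16 ± 1.44, edgeR's adjusted p = 0.421 and 0.28). The E5 value reversed to -1.85 without the third E5 library (edgeR's adjusted p = 0.213) and to -0.28 on the log2(FPKM + 0.1) scale. With the third E5 and the third E7 library both left out, BMP4 was lower at E5 than at E3 (-1.86, edgeR's adjusted p = 0.00274) and higher at E7 than at E3 (2.70, edgeR's adjusted p = 0.00037). These libraries were left out for how they lay among the others, so the calls made without them are not independent evidence.

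**Figure D2:**
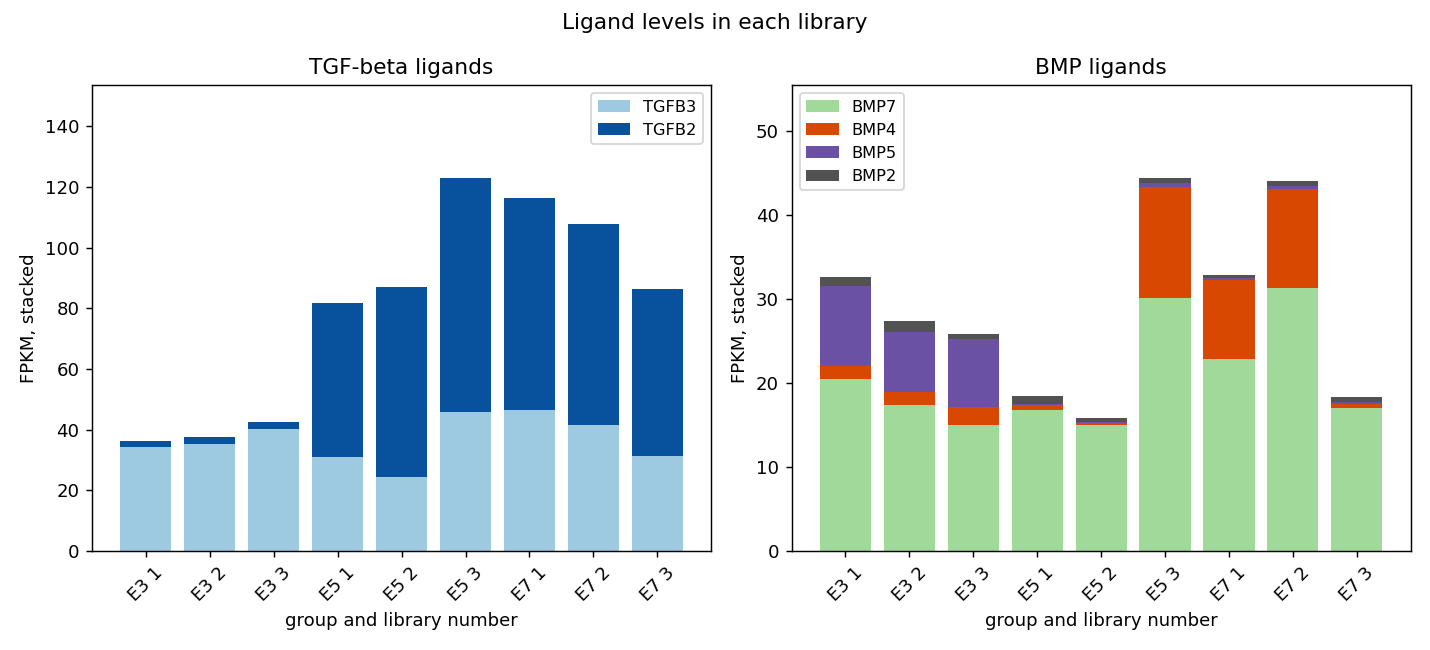
Stacked FPKM of the TGF-beta ligands (left) and BMP ligands (right) in each of the 9 libraries, on linear axes that start at 0. TGFB2 makes up 60.1% to 72.0% of the TGF-beta ligand sum in the corneal libraries, against 5.40% to 5.53% at E3, and BMP5 makes up 0.65% to 1.15% of the BMP ligand sum in the corneal libraries, against 26.3% to 31.4% at E3.

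As a share of the summed FPKM of the 4 BMP ligands, BMP7 held 91.0%, 94.2% and 93.1% in the first and second E5 libraries and the third E7 library. In the third E5 library and the first and second E7 libraries, BMP7 held 67.8%, 69.5% and 71.1%, and BMP4 held 30.0%, 28.5% and 26.7%. BMP5 held 0.65% to 1.15% in the 6 corneal libraries, against 26.3% to 31.4% at E3, where BMP7 held 58.2% to 63.7%. The sum of the BMP ligands was 25.84 to 32.59 FPKM at E3, 15.89 to 44.37 FPKM at E5 and 18.31 to 44.02 FPKM at E7, so it overlapped between stages.

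Markers of other tissues were also high in the libraries where BMP4 was high. The 9 detected markers of corneal epithelium and surface ectoderm summed to 50.3 to 59.7 CPM at E3, to 23.9, 20.8 and 141 CPM at E5, and to 311, 168 and 31.4 CPM at E7. EPCAM, an epithelial adhesion protein, had 31.66, 72.45 and 37.89 FPKM in the third E5 and the first and second E7 libraries, against 1.61, 1.98 and 3.34 FPKM in the other corneal libraries, while the epithelial keratin KRT5 was at 0 to 0.08 FPKM in all 9 libraries. The 6 Schwann cell and neuron markers summed to 106 to 111 CPM at E3, to 42.4, 43.3 and 300 CPM at E5, and to 290, 278 and 38.3 CPM at E7. FABP7 was the highest of these markers, at 419.61, 398.67 and 380.44 FPKM in the same 3 libraries, while SOX10 was at 0.53, 1.0 and 0.45 FPKM there and the neuronal marker STMN2 at 0 in all 6 corneal libraries.

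The 10 vascular markers summed to 517 to 559 CPM at E3, 416 to 816 CPM at E5 and 420 to 740 CPM at E7. Within that list, FLT4 had 94.6, 77.99 and 85.32 FPKM in the third E5 and the first and second E7 libraries, against 49.32, 53.45 and 50.05 FPKM in the other corneal libraries. KDR had 1.33, 0.49 and 0.88 FPKM in the same 3 libraries and 0.04, 0.08 and 0.1 FPKM in the other corneal libraries, against 13.19 to 15.75 FPKM at E3. CDH5 had 3.83, 2.02 and 3.17 FPKM in the same 3 libraries, against 0.05, 0.27 and 0.08 FPKM in the other corneal libraries. TEK ran the other way, with 0.42, 0.52 and 0.56 FPKM against 1.17, 1.74 and 1.21 FPKM. The 10 retinal and pigment cell markers summed to 31.6 to 35.8, 28.1 to 59.5 and 27.6 to 69.6 CPM, and the 4 leukocyte markers to 25.2 to 28.3, 16.1 to 45.3 and 20.4 to 81.5 CPM. The sum of 7 markers of corneal endothelium and keratocytes ran the other way, with 13700, 12600 and 6110 CPM at E5 and 7610, 6290 and 14500 CPM at E7, against 1080 to 1220 CPM at E3. Of these 7, ALDH1A2, a retinoic acid synthesis enzyme, ran with BMP4, at 209.85, 276.03 and 492.55 FPKM at E5 and 552.66, 488.01 and 238.17 FPKM at E7. KERA, a keratocyte marker of the same list, had 1802.65, 1684.57 and 600.77 FPKM at E5 and 815.67, 632.11 and 1952.07 FPKM at E7. KERA was thus not confined to E7, the stage described as endothelium with keratocytes. The 9 neural crest markers summed to 804 to 962 CPM at E3, 2550 to 2590 CPM at E5 and 2090 to 2490 CPM at E7, and the 14 lens markers to 4.66 to 8.98 CPM in all 9 libraries. The part of these cell types in the values of BMP4 and BMP7 was not tested.

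**Figure D3:**
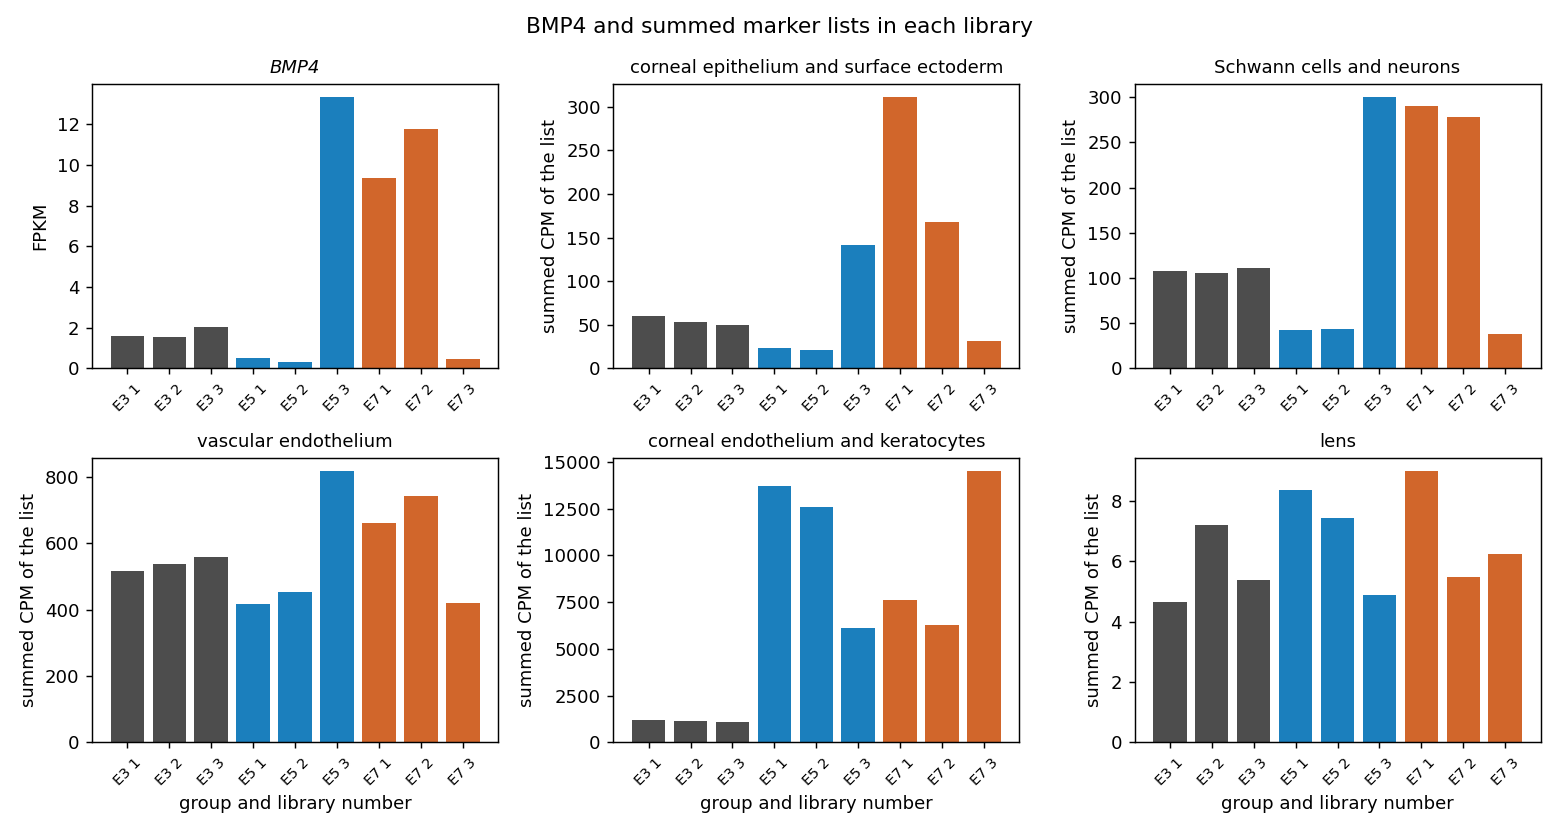
BMP4 in FPKM and the summed CPM of 5 marker lists, as bars per library that start at 0, with the lists for corneal epithelium, Schwann cells and neurons, vessels, cornea and lens in panels of their own. The 3 corneal libraries with 9.36 to 13.32 FPKM of BMP4 also hold 141 to 311 CPM of the epithelial and ectodermal markers, against 20.8 to 31.4 CPM in the other 3 corneal libraries.

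All 3 secreted antagonists of the set were present at E3 and near 0 in the cornea. CER1 (Cerberus), which in other vertebrates binds BMPs and Nodal, had 19.42, 17.31 and 12.78 FPKM at E3, 0, 0 and 0.12 FPKM at E5, and 0.11, 0 and 0 FPKM at E7. Its counts summed to 2 at E5 and 1 at E7, against 874 at E3. Scaled to depth it was 469.1-fold lower at E5 (exact 95% interval 129.5 to 3879.5) and 505.8-fold lower at E7 (90.5 to 20001), and edgeR's adjusted p against E3 was 0.000526 and 0.000674. CER1 reached the count filter in the 3 E3 libraries and in no corneal library, so it was tested only because it is high at E3, and its p-values are no support beyond the counts. These intervals cover counting error only. CER1 was the third most abundant of the 10 genes at E3, and its range overlapped that of BMP7 there.

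GREM1 (gremlin), which binds BMP2 and BMP4, had 2.63, 2.03 and 2.67 FPKM at E3, 0, 0.06 and 0.28 FPKM at E5, and 0, 0.19 and 0 FPKM at E7. No corneal library reached the E3 range. Its counts summed to 5 at E5 and 2 at E7, against 113 at E3, and scaled to depth it was 24.3-fold lower at E5 (exact 95% interval 10.1 to 76.2) and 32.7-fold lower at E7 (8.8 to 273.3). The fall was called at E5 (log2 fold change -4.26 ± 1.03, edgeR's adjusted p = 0.0141) and at E7 (edgeR's adjusted p = 0.0144). GREM1 too reached the count filter in the 3 E3 libraries and in no corneal library, so it entered the test only through the stage where it is high. Its p-values, here and in the other fits, are therefore no support beyond the counts. On the log2(FPKM + 1) scale the changes were -1.63 and -1.69 (limma's adjusted p = 7.4e-05 and 6.13e-05). The E5 call was lost without the second E5 library (-3.97, edgeR's adjusted p = 0.0563). Both E7 counts came from the second E7 library, and without it the fitted value at E7 was -8.00 (edgeR's adjusted p = 0.024), which depends on the prior count.

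NOG (noggin), which blocks BMP ligands from their receptors, had 0.42, 0.77 and 1.19 FPKM at E3, 0, 0 and 0.33 FPKM at E5, and 0.31, 0.11 and 0 FPKM at E7. Its counts summed to 4 at E5 and 3 at E7, against 32 at E3. It was too low to pass the count filter, so no test across genes was made. Scaled to depth it was 8.6-fold lower at E5 (exact 95% interval 3.0 to 33.4) and 6.2-fold lower at E7 (1.9 to 31.5). The corneal libraries lay below the E3 libraries, though the gap between 0.33 and 0.42 FPKM is a matter of a few counts. The 3 antagonists together summed to 0 to 0.73 FPKM in the corneal libraries, against 16.64 to 22.47 FPKM at E3.

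Counted over the 10 genes, TGFB2 and TGFBR2 were called higher and BMP5, CER1 and GREM1 lower, at E5 and again at E7 against E3. TGFB3, BMP2, BMP4 and BMP7 were not called, and NOG was not tested. Over the 11719 genes tested, 18.5% were called higher and 17.6% lower at E5 against E3, and 17.3% higher and 16.4% lower at E7 against E3. The counts of 2 higher and 3 lower among 10 differ by less than 2 genes from what those shares give for 10 genes. CER1 and GREM1 passed the count filter only through their E3 libraries, so they had to differ in order to be tested. In FPKM, TGFB2 and TGFBR2 were higher in all 6 corneal libraries than in any E3 library, as 16.2% of all genes tested were, and BMP5, CER1, NOG and GREM1 were lower in all 6, as 30.5% were. The comparisons of E5 and of E7 with E3 share the E3 libraries.

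**Figure D4:**
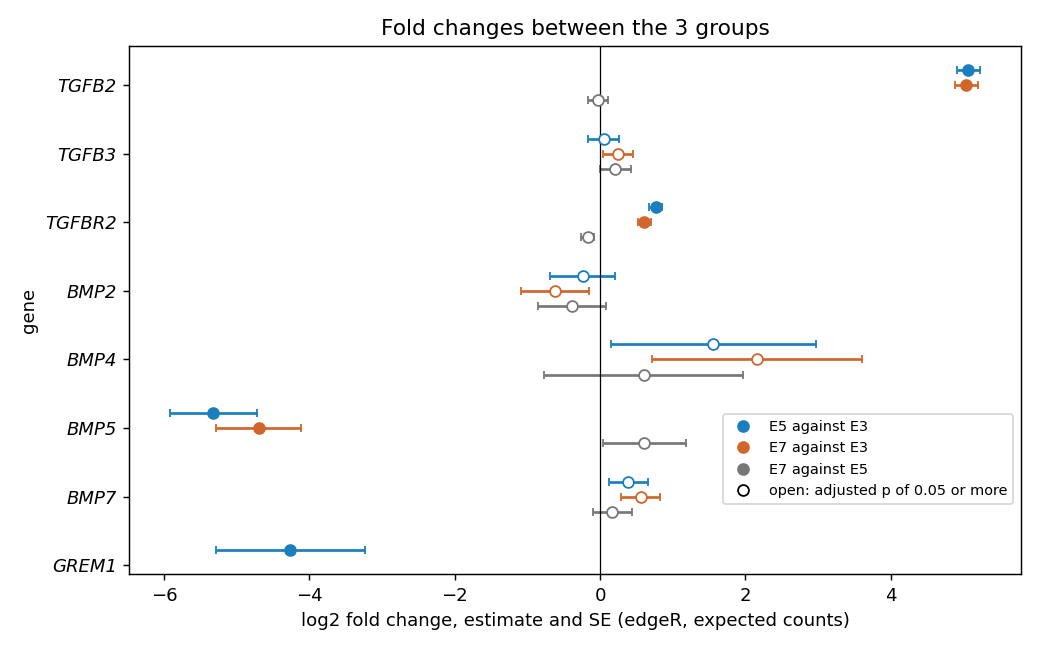
Log2 fold change of the tested genes for E5 against E3, E7 against E3 and E7 against E5 from edgeR, with bars of 1 SE; filled points passed an adjusted p of 0.05. CER1, GREM1 at E7 and NOG are given as count ratios in the text and not drawn. TGFB2 lies at 5.07 and 5.04 in the comparisons with E3 and at -0.03 for E7 against E5, where no point is filled.

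Between E7 and E5, none of the 9 tested genes of the set was called by edgeR (adjusted p = 0.971 to 0.997), and none had an unadjusted p below 0.05 in edgeR, DESeq2 or limma. Over all genes edgeR called 0% higher and 0% lower, with 281 genes at an unadjusted p below 0.05, while DESeq2 called 11 genes and limma on log2(FPKM + 1) called 0. The log2 fold change was -0.03 ± 0.14 for TGFB2, 0.21 ± 0.21 for TGFB3, -0.17 ± 0.09 for TGFBR2, 0.60 ± 1.37 for BMP4 and 0.17 ± 0.27 for BMP7. With the third library of E5 and of E7 both left out, BMP4 (4.56), BMP5 (1.80), BMP7 (0.66) and TGFB3 (0.56) were called higher at E7 than at E5 (edgeR's adjusted p = 0.00036, 0.0138, 0.0398 and 0.0352). In that fit 2725 genes were called, and the choice of libraries to leave out rested on these data.

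Ordered by mean FPKM, the genes ran at E3 as TGFB3, BMP7, CER1, BMP5, TGFBR2, GREM1, TGFB2, BMP4, BMP2 and NOG. The library ranges of BMP7 and CER1 overlapped there, as did those of BMP5 and TGFBR2, of GREM1, TGFB2 and BMP4 in turn, and of BMP2 and NOG. At E5 the order was TGFB2, TGFB3, BMP7, TGFBR2, BMP4, BMP2, BMP5, GREM1, NOG and CER1, with overlaps between TGFB3 and BMP7, between TGFBR2, BMP4 and BMP2 in turn, and among the last 4. At E7 TGFB2, TGFB3 and BMP7 led in that order without overlap between neighbours. TGFBR2, BMP4 and BMP2 followed with overlaps in turn, and BMP5, NOG, GREM1 and CER1 closed the order, each overlapping the next.

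Among 14 genes of TGF-beta latency, storage and processing, 11 were higher at E5 and 11 at E7 than at E3, and none was lower, beside 18.5% of all genes called higher at E5 and 17.3% at E7. Their median log2 fold change was 2.31 at E5 beside 0.03 over all genes, and 2.39 at E7 beside 0.04. THBS1 (thrombospondin 1), a matrix protein that can activate latent TGF-beta, rose to 88.4 ± 26.1 FPKM at E5 and 97.5 ± 21.0 FPKM at E7, against 11.9 ± 0.920 FPKM at E3 (SD, n = 3 each; log2 fold changes 3.06 and 3.17, edgeR's adjusted p = 4.73e-05 and 3.99e-05). ITGB8, an integrin subunit that releases TGF-beta from its propeptide, rose to 10.8 ± 4.28 FPKM at E5 and 12.1 ± 4.60 FPKM at E7, against 1.05 ± 0.546 FPKM at E3 (3.56 and 3.67, edgeR's adjusted p = 0.000229 and 0.000202). FBN2 (fibrillin 2), a microfibril protein that holds latent complexes in the matrix, rose to 75.1 ± 10.5 FPKM at E5 and 64.8 ± 4.74 FPKM at E7, against 10.4 ± 1.55 FPKM at E3 (3.03 and 2.78, edgeR's adjusted p = 1.64e-05 and 2.29e-05). LTBP1, a latent TGF-beta binding protein chosen after its values were seen, averaged 262 FPKM at E5 and 193 FPKM at E7, against 38.1 FPKM at E3 (2.97 and 2.50, edgeR's adjusted p = 0.00125 and 0.00253).

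Of 16 other ligands with an entry, 7 passed the count filter, and a gene that passed only through its E3 libraries had to differ. At E5 and again at E7, 1 of the 7 was called higher and 2 lower, and all 3 were below 5 FPKM. Over all genes 18.5% were called higher and 17.6% lower at E5, so these counts are near the background. The median log2 fold change was -0.56 at E5 and 0.68 at E7, beside 0.03 and 0.04 over all genes. The ligands called, named here after their values were seen, were BMP3, GDF2 and GDF10. BMP3 averaged 3.88 FPKM at E5 and 3.91 FPKM at E7, against 0.787 FPKM at E3 (log2 fold changes 2.59 and 2.47, edgeR's adjusted p = 0.000697 and 0.000898). GDF10 averaged 0.107 FPKM at E5 and 0.0567 FPKM at E7, against 4.78 FPKM at E3. GDF2, also called BMP9, had 0 counts at E5 and at E7, against 148 at E3, and was at least 53.0-fold lower at E5 and at least 28.6-fold lower at E7, taking 3 counts over a group as the floor.

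Of 15 other secreted antagonists and binding proteins tested, 4 were higher and 2 lower at E5, and 4 higher and 3 lower at E7. These counts are near the background of 18.5% higher and 17.6% lower at E5, and 17.3% and 16.4% at E7. The group had median log2 fold changes of 0.84 and 0.69 beside 0.03 and 0.04 over all genes. CHRDL1, a chordin-like BMP antagonist, fell to 0.160 ± 0.111 FPKM at E5 and 0.237 ± 0.191 FPKM at E7, against 5.25 ± 1.30 FPKM at E3 (edgeR's adjusted p = 0.00314 and 0.005). Its log2 fold changes were -4.91 and -4.36, and -2.41 and -2.33 on the log2(FPKM + 1) scale. CRIM1, a membrane protein that binds BMPs, rose to 12.3 ± 1.09 FPKM at E5 and 12.1 ± 0.244 FPKM at E7, against 2.49 ± 0.233 FPKM at E3 (2.48 and 2.42, edgeR's adjusted p = 1.28e-05 and 1.49e-05). FSTL1, a secreted follistatin-like glycoprotein, rose to 618 ± 131 FPKM at E5 and 596 ± 24.8 FPKM at E7, against 325 ± 10 FPKM at E3 (1.10 and 1.02, edgeR's adjusted p = 0.000411 and 0.000589). TWSG1 (twisted gastrulation), a BMP binding protein, averaged 62.1 ± 3.61 FPKM at E5 and 66.1 ± 4.43 FPKM at E7, against 43.0 ± 0.414 FPKM at E3 (0.71 and 0.76, edgeR's adjusted p = 0.000781 and 0.00059).

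SOSTDC1, a secreted BMP and Wnt antagonist, was high in the same 3 corneal libraries as BMP4. It had 1.12 to 1.57 FPKM at E3, 2.59, 3.97 and 41.75 FPKM at E5, and 53.15, 49.72 and 3.03 FPKM at E7. All corneal libraries lay above the E3 libraries, and the call at E7 (log2 fold change 4.74 ± 1.35, edgeR's adjusted p = 0.0281) was lost without any 1 of the E3 libraries or without the first or second E7 library (edgeR's adjusted p = 0.0607 to 0.0954). On the log2(FPKM + 1) scale it was also lost (3.22, limma's adjusted p = 0.0587).

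Among 15 SMAD proteins and their regulators, 6 were higher and none lower at E5 and again at E7, beside 18.5% of all genes called higher and 17.6% lower at E5 and 17.3% and 16.4% at E7. They had median log2 fold changes of 0.17 and 0.26 beside 0.03 and 0.04 over all genes. SMAD3, which carries the TGF-beta signal to the nucleus, rose to 86.1 ± 11.3 FPKM at E5 and 90.6 ± 9.62 FPKM at E7. At E3 SMAD3 had 47.0 ± 4.48 FPKM (SD, n = 3 each, log2 fold changes 1.05 and 1.09, edgeR's adjusted p = 0.000825 and 0.000703). PMEPA1, a TGF-beta induced inhibitor of SMAD activation in mammals, rose to 21.0 ± 2.53 FPKM at E5 and 19.6 ± 3.95 FPKM at E7, against 3.42 ± 0.467 FPKM at E3 (2.80 and 2.67, edgeR's adjusted p = 9.71e-05 and 0.000125). SMURF2, a ubiquitin ligase that targets SMADs and TGF-beta receptors, rose to 29.7 ± 11.1 FPKM at E5 and 36.9 ± 15.7 FPKM at E7, against 9.91 ± 1.85 FPKM at E3 (1.73 and 2.0, edgeR's adjusted p = 0.00756 and 0.00437). SKI, a co-repressor of SMADs, averaged 15.7 ± 3.19 FPKM at E5 and 16.4 ± 7.19 FPKM at E7, against 8.94 ± 0.705 FPKM at E3 (1.04 and 1.13, edgeR's adjusted p = 0.0351 and 0.0275). How the E5 call held under the alternatives is not given here. The E7 call of SKI was lost without any 1 of the E3 libraries or without the first or second E7 library (edgeR's adjusted p = 0.0704 to 0.0898), by library size alone (1.01, edgeR's adjusted p = 0.0528), on the log2(FPKM + 1) scale (0.71, limma's adjusted p = 0.0977) and with the highest entry only (0.51, edgeR's adjusted p = 0.219).

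**Figure D5:**
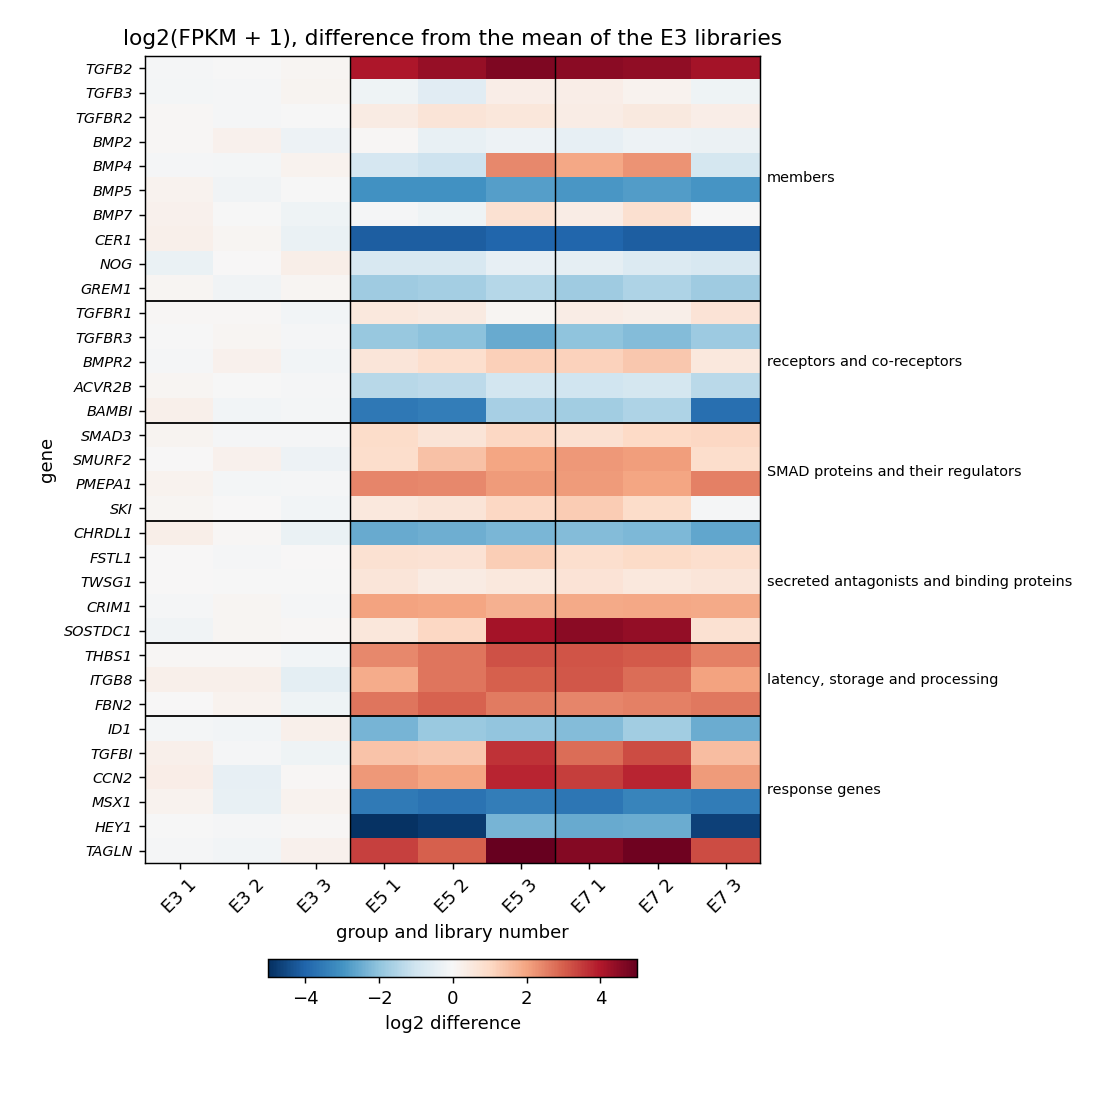
Difference of log2(FPKM + 1) from the mean of the E3 libraries, for the 10 genes and for the pathway genes chosen by rule from each list, in the 9 libraries. CRIM1, FBN2 and MSX1 are alike over the 6 corneal libraries, whereas SOSTDC1, TAGLN and BMP4 are highest in the third E5 and the first and second E7 libraries.

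Of 15 genes known to respond to these pathways in other systems, 3 were higher and 5 lower at E5, and 4 higher and 5 lower at E7, beside 18.5% of all genes called higher and 17.6% lower at E5 and 17.3% and 16.4% at E7. They had median log2 fold changes of -1.58 and -0.32 beside 0.03 and 0.04 over all genes. ID1, a helix-loop-helix inhibitor that BMP induces in many cells, fell to 65.5 ± 10.5 FPKM at E5 and 63.1 ± 16.4 FPKM at E7, against 275 ± 41.9 FPKM at E3 (-1.89 and -1.99, edgeR's adjusted p = 0.000343 and 0.00028). MSX1, a homeobox gene downstream of BMP in several tissues, fell to 0.757 ± 0.145 FPKM at E5 and 0.877 ± 0.218 FPKM at E7, against 19.9 ± 4.23 FPKM at E3 (-4.54 and -4.35, edgeR's adjusted p = 2.6e-05 and 3.48e-05). CCN2 (connective tissue growth factor), which TGF-beta induces in fibroblasts, had 85.73, 74.99 and 267.57 FPKM at E5 and 208.73, 264.3 and 83.69 FPKM at E7, against 13.61 to 23.03 FPKM at E3 (3.09 and 3.44, edgeR's adjusted p = 0.00472 and 0.00338).

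TAGLN, a smooth muscle actin-binding protein, had 57.55, 42.53 and 170.1 FPKM at E5 and 130.66, 156.89 and 50.75 FPKM at E7, against 3.86 to 5.32 FPKM at E3 (4.48 and 4.78, edgeR's adjusted p = 0.00135 and 0.00112). TGFBI, a matrix protein induced by TGF-beta, had 91.38, 86.11 and 414.55 FPKM at E5 and 237.6, 325.54 and 97.81 FPKM at E7, against 28.4 to 39.89 FPKM at E3. CCN2, TAGLN and TGFBI were each highest in the third E5 and the first and second E7 libraries, the libraries with the high BMP4 and EPCAM values. The TGFBI calls (2.71 and 2.84, edgeR's adjusted p = 0.0146 and 0.0129) were lost without the second or the third E3 library (edgeR's adjusted p = 0.0533 to 0.0589), and without the third E5 library the E5 value was 1.62 (edgeR's adjusted p = 0.0164). Without that library the E5 values of CCN2 and TAGLN were 2.33 and 3.70 (edgeR's adjusted p = 0.00489 and 0.00107).

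HEY1, a transcriptional repressor that BMP and Notch signals induce in some cells, had 0.89, 1.11 and 10.85 FPKM at E5 and 9.12, 9.54 and 1.28 FPKM at E7, against 55.73 to 60.41 FPKM at E3. All 6 corneal libraries lay below the E3 libraries (log2 fold changes -3.63 and -3.01, edgeR's adjusted p = 0.0261 and 0.0493). The E5 call was lost without any 1 of the E3 libraries or the first or second E5 library (edgeR's adjusted p = 0.06 to 0.0711), and the value was -5.64 without the third E5 library (edgeR's adjusted p = 0.00214). The E7 call was lost without any 1 of the E3 or E7 libraries (edgeR's adjusted p = 0.0879 to 0.105), without the count filter (adjusted p = 0.0517) and with the highest entry only (adjusted p = 0.0616).

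The genes whose levels ran most like each member over the 9 libraries were ranked by Pearson r of log2(CPM + 1), as a description. For TGFB2 they were TPBG (0.999), TMEM45B (0.998) and OLFML2B (0.998), and for TGFBR2 they were ETV6 (0.992), BEAN1 (0.992) and ABCC10 (0.989). For BMP5 they were EPHA4 (0.998), RGCCL (0.997) and BHMT2 (0.995), for CER1 they were PRDM16, FIGN and FOXD1 (0.996 each), and for GREM1 they were TIE1 (0.996), PAX3 (0.995) and RGCCL (0.994). For these 5 members the E3 libraries did not overlap with the corneal libraries. BMP4 ran most like CLIC6 (0.992), FABP7 (0.991) and TINAGL1 (0.991), and BMP7 most like SREBF1 (0.976), TNC (0.944) and TMEM138 (0.930). For TGFB3 the closest were IGBP1 (0.966), NENF (0.961) and FLNC (0.959), and for BMP2 they were EXOG (0.874), KLHL3 (0.849) and SCLT1 (0.822). The libraries also differ in depth and tissue, which all such pairs share.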

How the data were processed

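Total RNA from 9 libraries was sequenced by the authors, and 1 table per library was deposited. Per the file headers, each deposited table gives an entry's length in bases, the authors' expected count and the authors' FPKM. The submitters' processing notes name HISAT, Bowtie2 and the galGal5 build, and the counter is not given in the sources used here. Of 46855 entries, 23905 were matched to 14074 named genes by gene number or RefSeq accession through a RefSeq gene table of another build, from which no coordinates were taken. The other 22950 stayed out of gene tests but count in library totals. Matched genes held 76.4% to 78.5% of the counts.

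FPKM and expected counts were summed per gene, and counts were rounded. The main test was edgeR 4.0.16 (quasi-likelihood, TMM factors, filterByExpr, Benjamini-Hochberg adjustment over 11719 genes, threshold 0.05) in R 4.3.3, fitted to all 9 libraries. A log2 fold change is the later stage over E3, or E7 over E5. Its SE was derived as its absolute value over the square root of edgeR's F statistic. These SEs are therefore approximate, above all for genes near 0 counts in a stage. Count ratios carry exact 95% binomial intervals for counting error only, and 3 counts correspond to 0.129 to 0.304 CPM in a library.

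Alternatives were library size alone or RLE factors, no count filter, DESeq2 1.42.0, limma 3.58.1 on log2(FPKM + 1) and log2(FPKM + 0.1), the 2 compared stages only, the highest entry of each gene, a replicate block, each library left out in turn, and the third E5 and E7 libraries both left out. All 10 members are named. From each other list, called genes with the largest changes at 5 FPKM or more were named, up to 3 per direction and comparison. Each member's 3 most alike genes were named too, without NOG, which failed the filter. The members and lists were chosen with earlier results of these data known.

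On simulated counts for the 11719 genes, changes were placed only in genes above a minimum mean count. The fit recovered 52 of 100 genes changed 2-fold and 75 of 100 changed 4-fold for E5 against E3. It recovered 37 and 77 of 100 for E7 against E3, and 37 and 86 of 100 for E7 against E5. Recovery was not measured for genes with few counts, such as BMP2 and GREM1. No libraries of a group were duplicates: chi-square per degree of freedom within groups was 9.65 to 139.68.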

Additional observations from a re-analysis of the deposited data

How the results depend on the processing

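No call among the 10 genes reversed under any alternative. The values that reversed were not called in the reported fit, and 1 of them, BMP4 at E5 against E3, was called in the other direction with the third E5 and the third E7 library left out (adjusted p = 0.00274). TGFB3 at E5 against E3 was -0.12 by library size alone, -0.16 by limma with either pseudocount, -0.19 with the third E5 and the third E7 library both left out, and -0.19 to 0.23 with 1 library left out (-0.01 without the first E3 library). BMP4 at E5 against E3 was -0.28 by limma on log2(FPKM + 0.1), -1.86 with both left out and -1.85 to 2.11 with 1 library left out. For E7 against E5, TGFB2 was 0.01 by library size alone, 0.02 by limma with either pseudocount, 0.16 with both left out and -0.15 to 0.09 with 1 library left out, 0.03 being the value without the third E7 library. BMP2 was -0.59 to 0.03, BMP7 -0.06 to 0.50 (-0.01 without the second E5 library) and GREM1 -3.74 to 1.05 with 1 library left out, and GREM1 was 1.55 with both left out. Genes called with 1 library left out numbered 2764 to 4792 for E5 against E3, 2577 to 4477 for E7 against E3 and 0 to 1 for E7 against E5, and members called lower at E5 numbered 2 to 3. For E7 against E5, DESeq2 called 11 genes, limma on log2(FPKM + 0.1) called 1, and the fit with both left out called 2725, with 38 other pathway genes and 4 members higher; that fit also called 4 members higher at E7 against E3, BMP4 and BMP7 being those gained. Deviations of same-numbered libraries from their labelled stage means had correlations of -0.77 to -0.35 between E5 and E7. With E3 they were -0.00 to 0.08. The corneal libraries did not sort by stage, which can by itself make the values between E5 and E7 negative, and its part in them was not tested. These correlations therefore cannot show whether same-numbered libraries share more than a number, and this was not tested otherwise. With replicate number as a block, 3122 genes were called for E5 against E3, 2887 for E7 against E3 and 0 for E7 against E5. The number of members called stayed the same. With that block, 33 other pathway genes were called at E5 and 34 at E7 against E3, beside 41 at each in the main fit. The block lost the calls of TGFBR1 and HEY1 at both stages and of BAMBI and TGFBI at E5. The calls of SKI and SOSTDC1 at E7 were lost too (edgeR's adjusted p = 0.0606 to 0.124 for all). The cause of these differences was not tested. Across single genes and alternatives, 1184 values kept direction and side of the threshold, 60 lost a call, 6 gained a call and 20 reversed. Depth limits NOG, GREM1, CER1 and BMP5 in the cornea, where a few counts set the values.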
